A study of Mus musculus with 9 samples.

Results

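Selenbp1 and Selenbp2, the selenium-binding proteins, and 6 selenoprotein genes, Selenop, Selenow, Selenok, Selenos, Selenom and Selenof, were followed through photodynamic therapy (PDT) of B.END3 cells. These 8 genes, of 54532 listed, were taken by name. Selenbp1 was chosen by its measured level, for its rise at the higher light dose, so its values at that dose are given as a description, with no test. At 20 J/cm2 Selenbp1 stood 2.67-fold above control on group means, while its near-identical neighbour Selenbp2 gave no more than 1 fragment in any library. Selenos and Selenok, a pair of selenoproteins in the membrane of the endoplasmic reticulum (ER), rose 1.62-fold and 1.61-fold at that dose. No change passed the test for Selenof, Selenom or Selenow, and Selenop lay under the filter on low values.

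Selenoproteins carry selenocysteine, an amino acid that is inserted at a UGA codon that would otherwise end translation. Insertion needs a hairpin in the 3′ untranslated part of the mRNA, a protein that binds it, and a dedicated elongation factor with its own tRNA. Many selenoproteins are oxidoreductases that use the selenium atom to handle peroxides, thioredoxin or misfolded proteins. Selenium-binding protein 1 is different in kind: it binds selenium without holding selenocysteine, and it oxidizes methanethiol to formaldehyde, hydrogen sulfide and hydrogen peroxide. Selenoprotein P, made mostly in liver, carries selenium through blood to receptors of the LDL receptor family.

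The codon that sets the families apart can be read in the reference. In the GENCODE transcripts of the 6 selenoprotein genes, a TGA lay inside the reading frame, and it was the annotated selenocysteine in each case. The coding sequences of Selenbp1 and Selenbp2, 472 codons each, held 0 such codons. The windows below give the 12 bases before the codon and up to 15 after it within the coding sequence, 5′ to 3′, with the TGA in capitals, to show how early or late the selenocysteine falls in each protein.
Selenow, codon 13 of 88: tattgtggagctTGAggctataagcccaag
Selenom, codon 48 of 145: acctgtggaggaTGAcagttgaatcgccta
Selenof, codon 93 of 162: gaagtctgcggaTGAaaattggggaggttc
Selenop, codon 59 of 380, the first of 10: cttcaagccagcTGAtacttgtgtcttctg
Selenok, codon 92 of 94: atggctggtggaTGAggaagg
Selenos, codon 189 of 190: tcatctggcggcTGAaac
Selenow, Selenom and Selenof held the codon in the first part or the middle of the protein, and Selenok and Selenos at its end, so that the windows of the latter are shortened by the end of the coding sequence. Selenop, whose last TGA was codon 377, was the member with more than 1.

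The pair of selenium-binding protein genes lies on chromosome 3 (GRCm38, chr3:94933056-94944758 for Selenbp1 and chr3:94693556-94704413 for Selenbp2, both on the + strand). Their coding sequences, 1416 bases each, were 98.7% identical and differed at 18 bases. The likeness extended upstream: of the 300 bases around each annotated start, 272 were identical after alignment. The stretches before the listed gene starts are shown from RefSeq (GRCm38.p6, + strand), since 1 of these genes was transcribed here and the other was at the detection limit. Capitals mark ACGTG, a form of the core of the hypoxia response element, read on either strand. No other form of that core was searched or marked.
Selenbp1, chr3:94932833-94933055: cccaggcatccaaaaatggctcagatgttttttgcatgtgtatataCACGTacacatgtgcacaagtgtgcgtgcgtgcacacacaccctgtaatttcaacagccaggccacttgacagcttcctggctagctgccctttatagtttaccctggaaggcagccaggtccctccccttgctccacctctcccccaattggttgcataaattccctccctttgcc
Selenbp2, chr3:94693323-94693555: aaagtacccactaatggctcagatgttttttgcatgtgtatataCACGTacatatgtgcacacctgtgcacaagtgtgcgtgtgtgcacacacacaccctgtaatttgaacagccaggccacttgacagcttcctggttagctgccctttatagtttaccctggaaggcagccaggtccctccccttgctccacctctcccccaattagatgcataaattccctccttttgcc

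B.END3 is a line of mouse brain endothelial cells, and porfimer sodium is a porphyrin that gives reactive oxygen species under red light. Control cells (Ctrl) were untreated. Cells of the Ep1 and Ep2 groups took up porfimer sodium from medium at 300 µg/mL over 90 min and were then exposed to a 635 nm laser at 100 mW/cm2, to a light dose of 10 J/cm2 in Ep1 and 20 J/cm2 in Ep2. Each group had 3 libraries, all from this single line, and no library of drug alone or light alone was analysed here. Nothing says that the libraries of a group came from separate cultures, so p-values measure the spread between these libraries only.

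The 9 libraries held 16240688 to 19509225 fragments on genes, recovered from the deposited FPKM (fragments on a gene, scaled to its length and to the size of the library). The endothelial label was checked against 13 markers: 9 of them, with Pecam1, Kdr, Cldn5 and Vwf, stayed under 1 FPKM in all libraries, and Emcn and Erg were at 0. The 13 markers summed to 11.4 to 11.9 FPKM in the Ctrl libraries, 11.3 to 13.1 in those of Ep1 and 14.4 to 15.4 in those of Ep2, mostly through Flt1. The 6 epithelial markers, with Krt8, Krt18 and Krt19 in the lead, summed to 1029 to 1081, 937 to 1041 and 1155 to 1372 FPKM, while Cdh1 and Krt7 were under 1. The levels thus go against an endothelial identity, and the cells are called here by their line. The 5 macrophage, 3 astrocyte and 3 hepatocyte markers were all under 1 FPKM. In the pericyte and smooth muscle list of 5 genes, 1 was above the filter.

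Selenbp1, picked for its rise at 20 J/cm2, was the member whose level moved most. It stood at 13.2, 12.5 and 13.3 FPKM in Ctrl, at 20.2, 10.0 and 11.4 in Ep1, and at 38.7, 34.1 and 31.4 in Ep2. The lowest Ep2 library lay 1.56-fold above the highest of all others. The fitted log2 difference was 1.35 for Ep2 with Ctrl and 1.32 for Ep2 with Ep1, on the log2(FPKM + 1) scale used throughout.

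At 10 J/cm2 no rise of Selenbp1 was seen. Its mean was 13.9 ± 5.51 FPKM in Ep1 (SD, n = 3) against 13.0 ± 0.449 in Ctrl, with a log2 fold change of 0.03 (95% CI -0.48 to 0.54) and an adjusted p of 0.948. The wide interval came with 1 library: replicate 1 of Ep1 was 1.88-fold above the mean of replicates 2 and 3, which lay below every control library. Without it the difference was -0.26 with an adjusted p of 0.128. This comparison uses the same Ctrl libraries as the contrast that picked the gene.

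Selenbp2 was nearly silent. It gave 1 fragment in replicate 1 of Ctrl, 1 in replicate 1 of Ep1 and 1 in replicate 3 of Ep2, and 0 in the other 6 libraries. A count of 0 allows up to 3 fragments, or 0.0675 to 0.0795 FPKM in these libraries. Pooled over all 9 it stood at 0.00798 FPKM (exact Poisson 95% interval 0.00165 to 0.0233, counting error only). In the annotation 6.30% of the 150-base windows of Selenbp1 occur in Selenbp2 and 7.01% the other way round, so reads could in part be placed on either gene. Adding both genes raised the level of Selenbp1 by a factor of at most 1.002 in any library. Of the other members, Selenop shared 14.81% of such windows with Ccdc152, Selenof 14.14% with Hs2st1 and Selenok 2.946% with Gm48228, on either strand. The effect of this sharing on their levels was not tested.

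**Figure D1:**
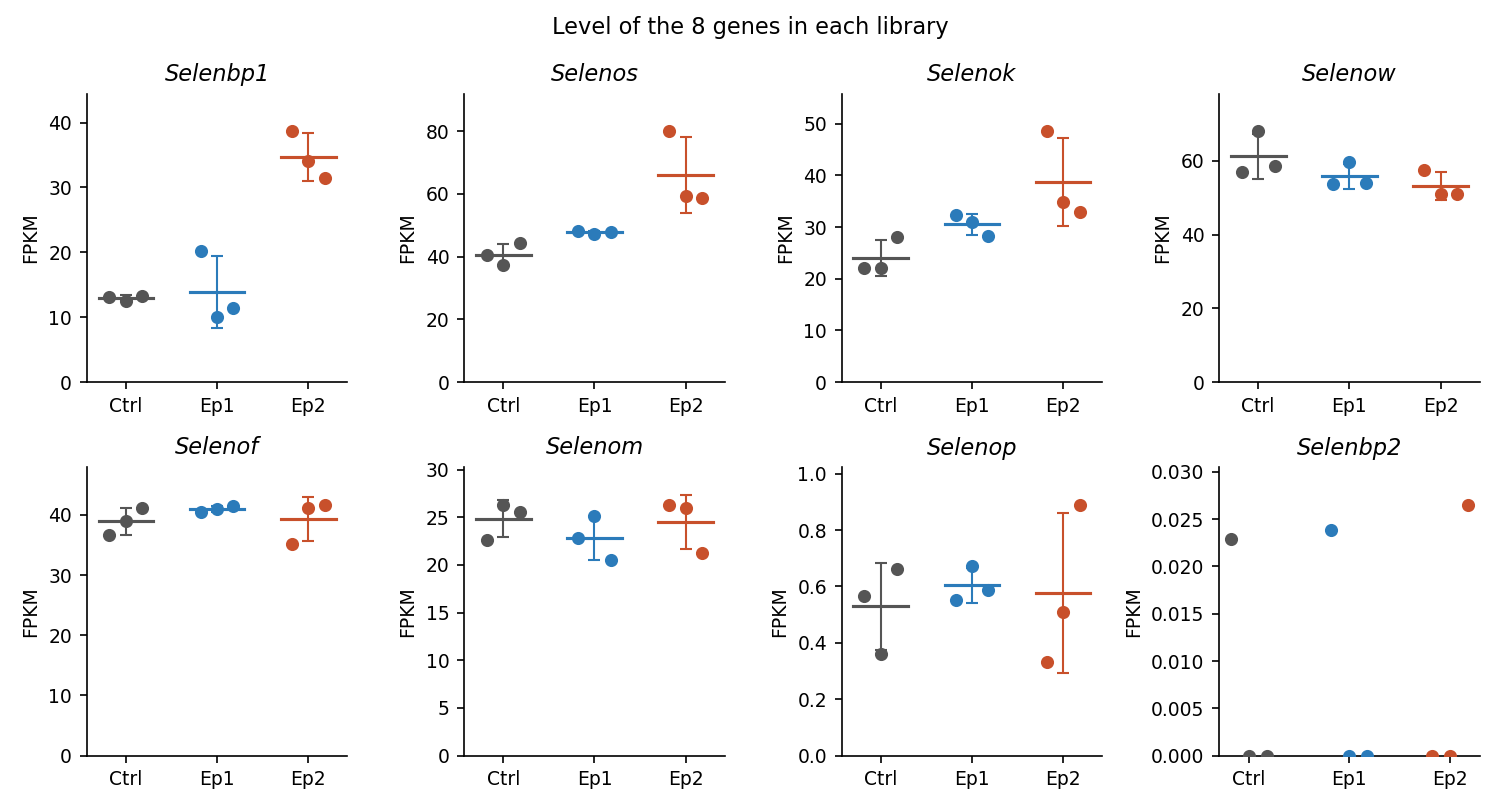
FPKM (y axis, from 0, with a scale of its own for each gene) of the 8 genes in the libraries of Ctrl, Ep1 (10 J/cm2) and Ep2 (20 J/cm2). Points are libraries, in the order of replicates 1 to 3, horizontal lines are group means and bars are SD (n = 3), both left out for Selenbp2, which has 0 or 1 fragment a library. The 3 Ep2 libraries of Selenbp1 sit between 31.4 and 38.7 FPKM, above all others, and those of Selenos and Selenok sit above both other groups.

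Selenos (also VIMP) spans the ER membrane, where it binds the ATPase p97 and the Derlin channel proteins that pull misfolded proteins out for degradation. The gene lies at chr7:66079649-66089405. Its level was 40.5, 37.3 and 44.2 FPKM in Ctrl, 48.3, 47.3 and 47.8 in Ep1, and 80.0, 59.3 and 58.8 in Ep2. All Ep1 libraries lay above all Ctrl libraries, and all Ep2 libraries above all Ep1 libraries. Ep2 was 1.62-fold above Ctrl on means, with a log2 fold change of 0.67 (95% CI 0.42 to 0.93, adjusted p = 0.00093 by limma), and 1.38-fold above Ep1, with a log2 fold change of 0.44 (adjusted p = 0.0109). For Ep1 with Ctrl the difference was 0.23 (95% CI -0.02 to 0.48) and did not pass (adjusted p = 0.204).

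Selenok is a short protein of the same membrane that joins the p97 and Derlin complexes and serves the palmitoyltransferase Zdhhc6 as its partner. The gene lies at chr14:29968308-29975662. It stood at 22.05, 22.11 and 28.02 FPKM in Ctrl, at 32.3, 31.0 and 28.4 in Ep1, and at 48.6, 34.8 and 32.9 in Ep2. Here too the groups did not overlap, with Ctrl lowest and Ep2 highest, although the highest control library and the lowest Ep1 library were less than 1 FPKM apart. Ep2 was 1.61-fold above Ctrl (log2 fold change 0.65, 95% CI 0.31 to 0.995, adjusted p = 0.00608). The steps from Ctrl to Ep1 (0.34, adjusted p = 0.172) and from Ep1 to Ep2 (0.32, adjusted p = 0.12) did not pass.

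Replicate 1 of Ep2 was the highest library for both genes, 1.35-fold above the mean of replicates 2 and 3 for Selenos and 1.43-fold for Selenok. Without it the log2 fold changes for Ep2 with Ctrl were 0.53 and 0.48, both still called (adjusted p = 0.000167 and 0.00487) but under the limit for a differentially expressed gene (DEG; adjusted p below 0.05 and absolute log2 fold change above 0.6). The narrower spread without this library also brought Ep1 with Ctrl past the threshold for both, at adjusted p = 0.0246 for Selenos and 0.0405 for Selenok. An order with Ctrl below Ep1 below Ep2 and no overlap was found in 709 of the 11727 tested genes (6.05%). Markers moved with these results: of the epithelial list, 3 of 4 tested genes were higher in Ep2 than in Ctrl (23.9% of all genes were), and Flt1 of the endothelial list rose as well. Of the 3, Epcam passed the filter through its Ep2 libraries (2.03, 1.68 and 1.59 FPKM, with 1 of the other 6 libraries above 1), which left Krt18 and Krt19. Their part in the result was not tested. In RNA from whole cultures, fewer cells of a type and less RNA per cell cannot be told apart.

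The stretch upstream of Selenos (RefSeq, GRCm38.p6, + strand) is shown because it holds the same ACGTG core as those of the selenium-binding protein genes, here as the palindrome CACGTG, which is matched once on each strand.
Selenos, chr7:66079399-66079648: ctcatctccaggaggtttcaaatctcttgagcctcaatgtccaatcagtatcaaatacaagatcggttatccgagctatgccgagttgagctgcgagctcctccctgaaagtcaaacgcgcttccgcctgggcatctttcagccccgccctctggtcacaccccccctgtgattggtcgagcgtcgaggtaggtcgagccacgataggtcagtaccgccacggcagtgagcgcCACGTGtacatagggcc
ACGTG, searched on both strands in the 300 bases around each RefSeq gene start, was found for Selenbp1, Selenbp2, Selenos and Selenom, and in 19.62% of 32851 such windows of the genome. Counted from the RefSeq start, the match lay 204 bases upstream in Selenbp1, 206 in Selenbp2 and 17 in Selenos. For Selenbp1 and Selenbp2 that start lies downstream of the listed gene start, where the printed stretches end. TGACNNNGC, the core of the antioxidant response element, was found among the members in Selenok, 44 bases before the RefSeq start but inside the gene as listed, and in 12.39% of all windows. Selenom, with a match, gave no call, and Selenbp2, with a match, was not expressed above the detection limit. Among the other selenoprotein genes, ACGTG was found for Gpx1, Selenoh and Txnrd2, which were lower in Ep2 than in Ctrl. It was found for Msrb1 and Sephs2 too, which had no call in that comparison. TGACNNNGC was found there in a window of Txnrd1, which was higher in Ep2.

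Selenof and Selenom are soluble thioredoxin-like proteins inside the ER, and Selenof binds the glucosyltransferase Uggt1 that checks glycoprotein folding. Selenof (chr3:144570304-144597680) stood at 36.6, 39.1 and 41.1 FPKM in Ctrl, 40.5, 40.9 and 41.5 in Ep1, and 35.1, 41.1 and 41.7 in Ep2. Selenom (chr11:3514684-3517351) stood at 22.7, 26.3 and 25.6, at 22.9, 25.1 and 20.5, and at 26.3, 26.0 and 21.2. For both genes the 3 groups overlapped. The log2 difference for Ep2 with Ctrl was 0.01 for Selenof (95% CI -0.14 to 0.16, adjusted p = 0.902) and -0.02 for Selenom (-0.24 to 0.20, adjusted p = 0.871), so that the intervals leave out a change of the size fitted for Selenos. The signs of these near-zero values turned under other scalings or without single libraries.

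Selenow is a small thioredoxin-fold protein of the cytosol, known from muscle. The gene lies at chr7:15917208-15922402 on the - strand. Its FPKM was the highest of the members in Ctrl, at 56.9, 68.0 and 58.6, and was 53.6, 59.6 and 54.0 in Ep1 and 57.5, 51.1 and 50.9 in Ep2. Its place among the members depends on the gene lengths behind the FPKM. The groups overlapped, and the difference for Ep2 with Ctrl, -0.20 (95% CI -0.37 to -0.02), missed the threshold at an adjusted p of 0.0566. It was called without replicate 1 of Ep2 (-0.25, adjusted p = 0.0215). For Ep1 with Ctrl it was -0.13 (adjusted p = 0.3).

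Selenop (chr15:3268547-3280508) was low, under 1 FPKM in every library but above the 0.0540 to 0.0636 FPKM that 3 fragments would give. It gave 0.566, 0.360 and 0.663 FPKM in Ctrl, 0.553, 0.671 and 0.588 in Ep1, and 0.332, 0.508 and 0.890 in Ep2, from 18 to 42 fragments a library. The pooled level was 0.527 FPKM in Ctrl (86 fragments, exact Poisson 95% interval 0.422 to 0.651), 0.602 in Ep1 (92 fragments, 0.485 to 0.738) and 0.563 in Ep2 (87 fragments, 0.451 to 0.694). The intervals overlapped, but they leave out the spread between libraries and are no test of a difference. Selenop lay under the filter of 1 FPKM in 3 libraries, so no test of it is given. The gene overlaps Ccdc152 on the other strand over 439 bases, and Ccdc152 was listed at no more than 0.0397 FPKM.

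Among the 6 members above the filter, 0 passed at 10 J/cm2, where 11.3% of all tested genes did (6.32% upward and 4.97% downward), and 0 had an unadjusted p below 0.05. At 20 J/cm2, with Selenbp1 left aside, 2 of 5 passed against 53.2% of all genes, both upward (23.9% of all genes; 29.3% were called downward) and both DEGs (9.17% of all genes, 3.3% upward and 5.87% downward). The median log2 fold change of the 5 was 0.01 beside -0.03 for all genes. For Ep2 with Ep1, 1 of 5, Selenos, passed, against 44% of all genes (18.8% upward and 25.2% downward; of the calls themselves 42.8% were upward, and 55.5% with median centring). Counted in both directions, the share of members called at 20 J/cm2 was thus not above the background of calls. The upward and DEG shares were above theirs, but rest on the same 2 genes. Without Ep2 replicate 1 neither gene was a DEG (0.53 for Selenos and 0.48 for Selenok). The comparisons of Ep1 and Ep2 with Ctrl share the Ctrl libraries.

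**Figure D2:**
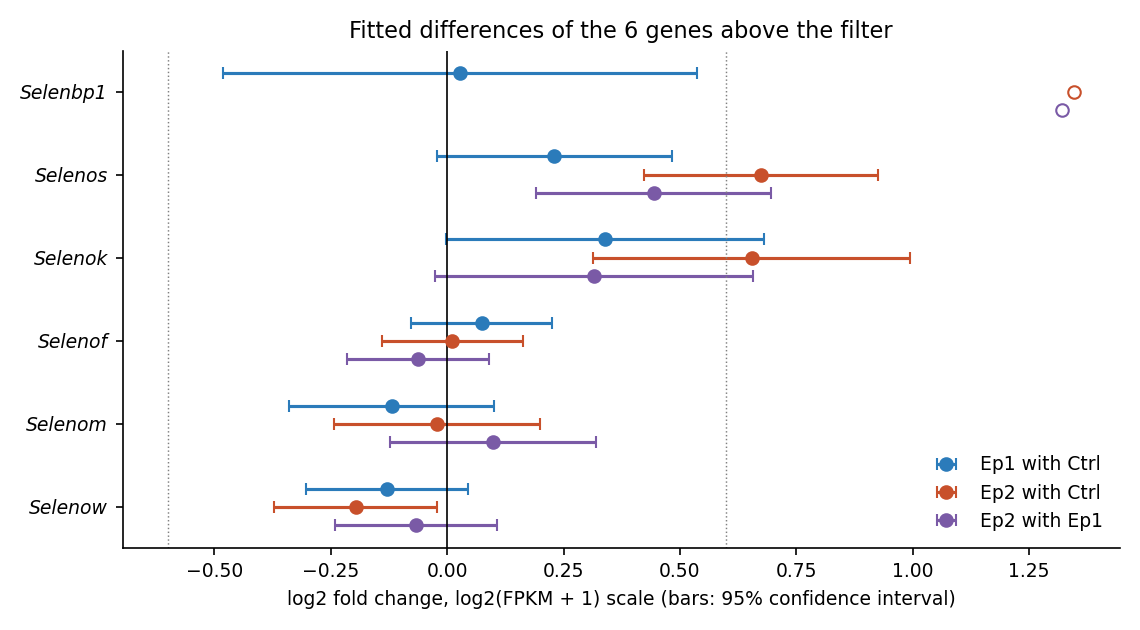
Fitted log2 fold changes (x axis, log2(FPKM + 1) scale) of the 6 members above the filter in 3 comparisons, with 95% confidence intervals. Open circles without bars mark Selenbp1 in the contrasts with Ep2, for which it was picked, and dotted lines mark the limit of 0.6. Selenos at 0.67 and Selenok at 0.65 lie past it for Ep2 with Ctrl, while Selenof, Selenom and Selenow stay between -0.20 and 0.10 in all 3 comparisons.

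The order of the members by deposited FPKM changed with dose. This order rests on the listed gene lengths, which can differ from those of the reference transcripts. Selenof was listed at 5819 bases against 1514 in its GENCODE transcript, and Selenow at 736 in both. In Ctrl Selenof had 4109 to 4446 fragments and Selenow 801 to 979. Places between genes thus depend on the length used, while the fold of mean FPKM of a gene between groups does not. The fitted log2 differences and the filter do depend on the length, since a fixed value is added to the FPKM or compared with it. In Ctrl, Selenow led at 61.2 ± 5.99 FPKM (SD, n = 3), followed by Selenos at 40.7 ± 3.44 and Selenof at 38.9 ± 2.23, whose libraries overlapped, then Selenom at 24.8 ± 1.92 and Selenok at 24.1 ± 3.43, which overlapped too, and Selenbp1 at 13.0 ± 0.449. In Ep1 Selenow, Selenos, Selenof, Selenok, Selenom and Selenbp1 followed each other with no overlap between neighbours. In Ep2 Selenos came first at 66.1 ± 12.1, ahead of Selenow at 53.2 ± 3.78. Selenof at 39.3 ± 3.65, Selenok at 38.8 ± 8.55 and Selenbp1 at 34.7 ± 3.68 then overlapped from one to the next, and Selenom came last of these at 24.5 ± 2.86. Selenop and Selenbp2 were lowest in every group.

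The other 18 selenoprotein genes of the mouse gave no common direction either. Of these, 12 were above the filter. Dio1, Dio2, Dio3, Gpx2, Gpx3 and Selenov were not tested; Dio3 and Gpx2 were at 0 in every library. For Ep2 with Ctrl 3 were higher and 4 lower (23.9% and 29.3% of all genes), none a DEG, with a median of -0.02 beside -0.03 for all genes. The 3 became 1 without Ctrl replicate 1, Ctrl replicate 2, Ep2 replicate 2 or Ep2 replicate 3. For Ep1 with Ctrl 0 were higher and 1 lower (6.32% and 4.97% of all genes), and for Ep2 with Ep1 2 were higher and 4 lower (18.8% and 25.2%). These 2 became 1 without any one library other than Ctrl replicate 3 or Ep2 replicate 1.

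The falls at 20 J/cm2 were in enzymes that remove peroxides, in a nucleolar protein and in a mitochondrial reductase. Gpx1, the cytosolic glutathione peroxidase, stood at 130, 131 and 126 FPKM in Ctrl, at 106, 123 and 116 in Ep1 and at 86.3, 92.1 and 93.5 in Ep2. Each group lay below the one before it, and Ep2 differed from Ctrl by -0.51 (adjusted p = 8.16e-05). The share of all genes with such a falling order was not counted. Selenoh, a DNA-binding protein of the nucleolus, fell from 76.2 ± 5.60 to 49.99 ± 4.15 FPKM (SD, n = 3; -0.60, adjusted p = 0.000284), at the very edge of the DEG limit. Gpx4, which reduces lipid hydroperoxides in membranes, was lower by a smaller step (-0.25, adjusted p = 0.00691), and this call was lost when each library was corrected for gene length (adjusted p = 0.0733). Txnrd2, the mitochondrial thioredoxin reductase, differed by -0.30 (adjusted p = 0.00364).

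Txnrd1, the cytosolic thioredoxin reductase, gave the largest rise among the 12, from 56.1, 54.8 and 55.3 FPKM in Ctrl to 86.5, 67.7 and 65.9 in Ep2 (0.39, adjusted p = 0.00437). Replicate 1 of Ep2 was again the highest, and without it the difference was 0.27. In Ep1 all libraries of Txnrd1 (68.3, 67.1 and 68.7) lay above Ctrl, yet the difference of 0.29 had an adjusted p of 0.0598. Selenoo, a mitochondrial enzyme that transfers AMP to proteins, and Selenot, an ER thioredoxin-fold protein, had small rises (0.21, adjusted p = 0.0345, and 0.15, adjusted p = 0.035), and each lost its call without single libraries (adjusted p up to 0.111 and 0.124). Selenon, which acts on calcium handling in the ER, differed by 0.13 (adjusted p = 0.075).

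Msrb1, which repairs oxidized methionine, was the gene called for Ep1 with Ctrl: its libraries gave 30.3, 32.8 and 31.2 FPKM for Ctrl, 25.4, 26.4 and 28.9 for Ep1 and 33.1, 32.1 and 30.3 for Ep2. The fall of -0.22 (adjusted p = 0.0409) lost its call when any one of the Ctrl or Ep1 libraries was left out (adjusted p up to 0.155), and the difference for Ep2 with Ctrl was 0.02. Txnrd3, a reductase best known from testis, had values of 7.37, 7.07 and 6.53 in Ctrl, 8.56, 8.09 and 8.05 in Ep1 and 7.25, 7.01 and 6.41 in Ep2. It was lower in Ep2 than in Ep1 (-0.23, adjusted p = 0.0124), and its difference for Ep1 with Ctrl was 0.21 (adjusted p = 0.0524). Selenoi, an enzyme of phosphatidylethanolamine synthesis, and Sephs2, which makes selenophosphate, gave no call in any comparison.

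Summed over all 24 selenoprotein genes, the level was 785 ± 10.8 FPKM (SD, n = 3) for Ctrl, 770 ± 22.2 for Ep1 and 753 ± 17.96 for Ep2. The ranges were 777 to 797, 747 to 792 and 735 to 771, so that Ep2 lay below Ctrl without overlap. The median log2(FPKM + 1) of all tested genes was lower in the Ep2 libraries too, at 3.09 to 3.10 against 3.14 in Ctrl. The sums were not corrected for this shift. These sums are dominated by abundant genes such as Gpx1 and Gpx4. Of the 24, 17 were at 1 FPKM or above in all libraries of each group.

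The 13 genes of selenoprotein synthesis were all above the filter. None was called for Ep1 with Ctrl by limma (2 had an unadjusted p below 0.05). For Ep2 with Ctrl 2 were higher and 6 lower (23.9% and 29.3% of all genes), with a median of -0.19 beside -0.03 for all genes, and for Ep2 with Ep1 2 were higher and 5 lower (18.8% and 25.2% of all genes). Eefsec, the elongation factor that brings the selenocysteine tRNA to the ribosome, fell most: 7.48, 6.94 and 6.38 FPKM in Ctrl, 6.55, 6.62 and 6.52 in Ep1, and 3.43, 4.08 and 4.21 in Ep2. Every Ep2 library lay below every other library, and the difference of -0.69 for Ep2 with Ctrl (adjusted p = 6.25e-05) made it the DEG of this list in that comparison.

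The other falls were in Ncl (nucleolin, -0.53, adjusted p = 0.000314), Eif4a3 (-0.31, adjusted p = 0.000188), Trnau1ap (-0.31, adjusted p = 0.00152), Sephs1 (-0.28, adjusted p = 0.00117) and Rpl30 (-0.34, adjusted p = 0.028). Ncl, Eif4a3 and Rpl30 also have general roles in ribosomes and mRNA, and are known to bind the selenoprotein hairpin. The call of Rpl30 was lost under several alternatives (adjusted p up to 0.119). The rises were in Sars, which charges the tRNA with serine (0.37, adjusted p = 0.00111), and in Secisbp2l, a relative of the hairpin-binding protein (0.23, adjusted p = 0.00208). Secisbp2, the binding protein itself, differed by -0.02 (95% CI -0.16 to 0.12). Sepsecs, which completes selenocysteine on its tRNA, Pstk, the kinase before it, Scly, which recovers selenium from selenocysteine, and Trit1, a tRNA-modifying enzyme, had no call, with differences of 0.21, -0.09, -0.19 and -0.06.

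**Figure D3:**
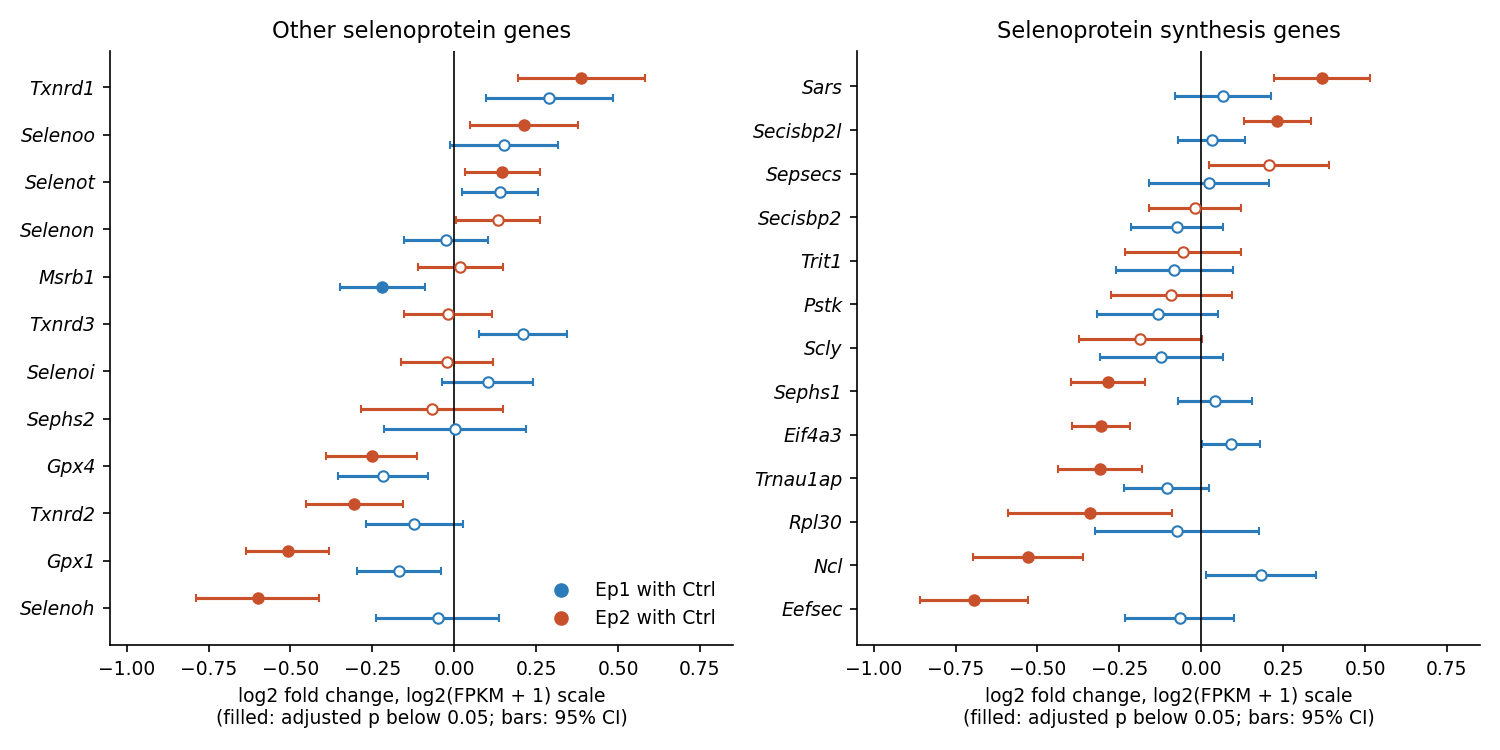
Fitted log2 fold changes (x axis, log2(FPKM + 1) scale) with 95% confidence intervals for Ep1 with Ctrl (blue) and Ep2 with Ctrl (red), over the 12 other selenoprotein genes above the filter (left) and the 13 synthesis genes (right), sorted by the second. Filled points have an adjusted p below 0.05. At 20 J/cm2 Selenoh and Gpx1 on the left and Eefsec and Ncl on the right lie lowest, and Txnrd1 and Sars lie highest.

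Of the receptors for selenoprotein P, Lrp1 stood at 26.3, 27.2 and 24.7 FPKM in Ctrl, 22.7, 20.9 and 20.3 in Ep1, and 19.9, 19.6 and 19.6 in Ep2. It was lower at both doses (-0.28, adjusted p = 0.0131, and -0.39, adjusted p = 0.000226); the call in Ep1 was lost without single libraries (adjusted p up to 0.0689). Lrp8, the receptor that takes up selenoprotein P in brain and testis, was lower in Ep2 than in Ep1 (-0.19, adjusted p = 0.0305) and also lost its call without single libraries. Lrp2 was under 0.02 FPKM throughout and was not tested.

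Among 15 genes of ER degradation and folding control that work with Selenos, Selenok and Selenof, 14 were tested. For Ep2 with Ctrl 7 were higher and 1 lower (23.9% and 29.3% of all genes), with a median of 0.17 beside -0.03 for all genes. For Ep2 with Ep1 6 were higher and 1 lower (18.8% and 25.2% of all genes), and for Ep1 with Ctrl 2 were higher (6.32%). Herpud1, which is induced by ER stress, was higher for Ep1 with Ctrl (0.30, adjusted p = 0.0444) and lost the call without single libraries (adjusted p up to 0.132). Sel1l, the scaffold of the ubiquitin ligase that marks misfolded proteins, stood at 12.7, 13.5 and 13.3 FPKM in Ctrl, 14.8, 12.9 and 13.1 in Ep1, and 24.5, 20.7 and 20.1 in Ep2. Its Ep2 libraries lay above all others (0.68, adjusted p = 9.19e-05). Zdhhc6, the partner of Selenok, was the gene that fell (-0.29, adjusted p = 0.00291), while Selenok itself was higher in Ep2.

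Methanethiol oxidation by Selenbp1 releases sulfide, and 7 enzymes that make or clear sulfide were read beside it. For Ep1 with Ctrl 0 were called (3 had an unadjusted p below 0.05). For Ep2 with Ctrl Cth, which makes sulfide from cysteine, was higher (0.39, adjusted p = 0.00479) and 3 were lower (23.9% and 29.3% of all genes), with Tst (-0.73, adjusted p = 0.000126) and Ethe1 (-0.61, adjusted p = 2.23e-05), a pair of mitochondrial enzymes that clear sulfide, as those with the smallest adjusted p. Cbs, which makes sulfide together with Cth, was lower in Ep2 than in Ep1 (-0.79, adjusted p = 0.00139 by limma) and than in Ctrl (-0.71, adjusted p = 0.00178). Suox, the sulfite oxidase, was higher in Ep2 than in Ep1 (0.47, adjusted p = 0.0164, and 0.0592 without Ep1 replicate 3). Suox met the filter of 1 FPKM through its Ep2 libraries (1.53, 1.03 and 1.21 FPKM), with 1 of the other 6 libraries above 1 (1.29). The filter thus favoured a higher level in Ep2, and the p-values of Suox are no support for a rise. These enzymes did not move in 1 direction while Selenbp1 was high.

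The genes whose levels followed Selenbp1 most closely were found by Pearson's r of log2(FPKM + 1) over the 9 libraries, among 11721 genes. They were Pgm2 (0.991), Zup1 (0.990), St3gal1 (0.986), Capn2 (0.985) and Neu1 (0.984). Zup1 passed the filter through the Ep2 libraries, at 1.17, 1.03 and 1.01 FPKM against 0.564 to 0.794 in the other 6, so it had to differ there. Their levels were high in the 3 Ep2 libraries, and in replicate 1 of Ep1 each was above the other Ep1 libraries, as Selenbp1 was. Neu1, the lysosomal sialidase, stood at 9.78, 7.09 and 7.52 FPKM in Ep1 and at 18.8, 17.5 and 16.3 in Ep2. The points share groups and libraries, so r describes a shared pattern over 9 libraries and no more.

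**Figure D4:**
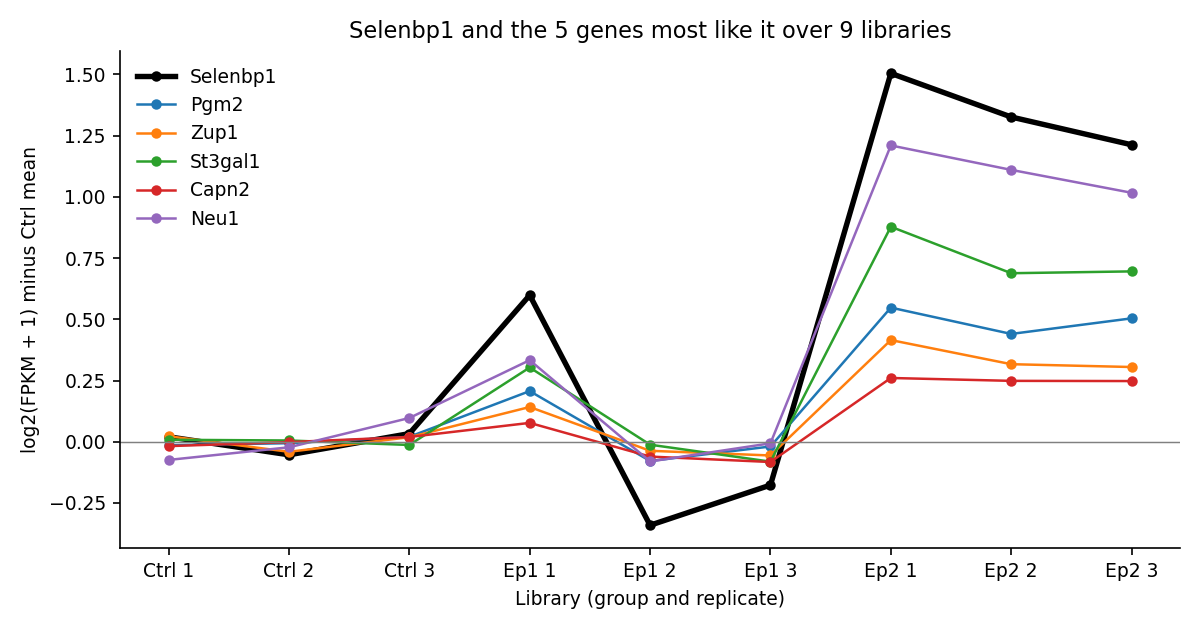
Log2(FPKM + 1) minus the Ctrl mean (y axis) of Selenbp1 (black) and the 5 genes most like it in each of the 9 libraries (x axis; lines only join the points of a gene). All stand highest in the Ep2 libraries, and all show a smaller peak in replicate 1 of Ep1, where Selenbp1 stood at 20.2 FPKM. The 5 genes were chosen for following Selenbp1 over these libraries, so the shared shape comes with the choice.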

How the data were processed

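Paired-end RNA sequencing of 9 libraries of B.END3 cells was analysed from 1 table of the series, which equals the 9 single-library tables. The authors deposited FPKM values, normalized for gene length and library size. Their methods name GRCm39 and the submitters' processing notes name mm8 and Bowtie 0.12.2, but 99.9% of 37624 listed genes overlapped their GRCm38.p6 position, so positions refer to GRCm38. The use of strand in counting is not given in the sources used here. The deposited FPKM times gene length gave whole fragments (100% of values within 0.05), hence depth. Intervals on fragments cover counting error only.

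The 11727 genes that reached 1 FPKM in 3 libraries or more were fitted as log2(FPKM + 1) in 1 limma model with all libraries (lmFit, then eBayes with trend and robust estimation), with Benjamini-Hochberg adjustment over all genes of a comparison. Since the offset of 1 understates changes of low genes, fold changes refer to that scale, and folds of means to FPKM. Calls had an adjusted p below 0.05. Recovery of known changes was tested on simulated data.

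The members and gene lists were chosen with earlier results of these data known. Named were all members, the genes of the selenoprotein and synthesis lists, in the receptor, ER and sulfur lists the 2 genes with the smallest adjusted p per comparison and direction, and the 5 genes most like Selenbp1 by Pearson's r; marker genes were named as a check of the cells. An item that this rule would name is not reported here. Coding sequences and selenocysteine positions came from GENCODE M39 and upstream sequences from RefSeq. Alternatives were median centring, a length correction, no filter, a filter of 5 FPKM, a pseudocount of 0.1, a replicate block with and without the length correction, only the 2 groups compared, voom on recovered fragments of genes with at least 10, and omission of each library. Software was R 4.3.3, limma 3.58.1, Biopython 1.88, matplotlib 3.10.9, scipy 1.17.1, pandas 2.3.3, numpy 2.4.6 and Python 3.11.15.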

Additional observations from a re-analysis of the deposited data

How the results depend on the processing

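The rises of Selenos and Selenok for Ep2 with Ctrl kept their direction and their call under all 18 alternatives, 9 of which leave out a library. Over the 63 single-gene values recomputed, 36 of 50 calls held under every alternative, and 10 of 13 uncalled values stayed uncalled. None of the called values changed sign. For Ep2 with Ctrl the difference of Selenom, -0.02, became 0.025 with median centring, 0.085 with the length correction, alone or with the replicate block, and 0.0023 with voom, and it ranged from -0.084 to 0.075 without single libraries. Selenof for the same comparison, 0.01, ranged from -0.033 to 0.088 without single libraries, and for Ep2 with Ep1, -0.06, from -0.11 to 0.015. Selenbp1 for Ep1 with Ctrl, 0.03, ranged from -0.26 without Ep1 replicate 1 to 0.21 without Ep1 replicate 2. The cause was not tested.

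Counts at 10 J/cm2 moved most. The count of members called for Ep1 with Ctrl was 0, but 1 when only the 2 groups compared were fitted, and 0 to 2 without single libraries. That of other selenoprotein genes was 1, but 2 with median centring, 0 with no filter, 4 with the stricter filter, 2 with the replicate block, 4 with only the 2 groups compared, 3 with voom and 0 to 4 without single libraries. That of synthesis genes was 0, but 1 with only the 2 groups compared and 0 to 1 without single libraries. The total counts for Ep2 stayed within 1.5 times. Their split moved for the other selenoprotein genes: the 3 that were higher in Ep2 than in Ctrl became 1 with no filter, with only the 2 groups compared, and without Ctrl replicate 1 or 2 or Ep2 replicate 2 or 3, and the 2 that were higher in Ep2 than in Ep1 became 1 with no filter, with the replicate block and without any one library other than Ctrl replicate 3 or Ep2 replicate 1.

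The labels give same-numbered libraries no link beyond the number. The correlations of their deviations from the group means lay between -0.0565 and 0.0744. These values cannot tell whether such libraries shared a culture or a batch. The block changed the number of genes called for Ep1 with Ctrl from 1324 to 1051. That number was 396 with no filter, 2217 with only the 2 groups compared and 1993 with voom, and without single libraries it ranged from 192 (Ctrl replicate 2) to 2192 (Ep2 replicate 1). Over all genes, upward calls for Ep2 with Ctrl made up 44.9% of calls, and 52.7% with median centring; for Ep2 with Ep1 they were 42.8% and 55.5%. Depth limits Selenop and Selenbp2, which were below the filter.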
